A study of Mus musculus with 6 samples.

Results

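The lineage markers described here are 8 genes, Mecom, Sox17, Folr1, Wfdc2, Emx2, Msx1, Msx2 and Foxj1, chosen by name from the 25006 genes counted in each library. Earlier results of these data were known when they were chosen. The 8 are genes by which Mullerian epithelium (the lining of the oviduct and uterus) and the serous ovarian carcinomas related to it are recognised. RNA sequencing measured them in cultured cells of the mouse ovarian surface epithelium (MOSE), the single cell layer that covers the ovary, in 2 stable lines with 3 libraries each. MOSE-PAX8 overexpresses the transcription factor PAX8, MOSE-NEO is the line it is set against, and both were kept under G418 selection. Each group is 1 line by its labels, which do not state whether its libraries were grown as separate cultures. The p-values therefore cover library-to-library spread, possibly only technical.

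PAX8 is a paired-box transcription factor that is needed for the Mullerian duct, the embryonic tube that gives rise to the oviduct and uterus, and it stays on in the secretory cells of the oviduct. In human serous ovarian carcinoma PAX8, SOX17 and MECOM are regarded as lineage transcription factors, and the folate receptor encoded by FOLR1 and the secreted protein encoded by WFDC2 (also called HE4) serve as a drug target and a serum marker. EMX2, MSX1 and MSX2 are homeobox factors of the developing reproductive tract, and FOXJ1 switches on the genes of motile cilia in the ciliated cells of the oviduct. The normal ovarian surface lies outside the Mullerian tract.

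Library totals ran from 23623762 to 36367825 counts. Pax8 had 2570, 2973 and 3544 counts in the MOSE-PAX8 libraries, against 0, 1 and 1 in the MOSE-NEO libraries. Log2 CPM (counts per 1e6 of the TMM-scaled library total) had a correlation across genes of at least 0.989 for libraries of the same line, against at most 0.946 for libraries of different lines. Markers of the ovarian surface were abundant: the 16 genes of that list summed to between 9781 and 11427 CPM in MOSE-PAX8 and between 16431 and 18233 CPM in MOSE-NEO, and none was at 0 in all libraries. Of the 15 tested, 2 rose and 9 fell in MOSE-PAX8, with a median log2 fold change of -0.61. These called genes (edgeR adjusted p below 0.05) were 73.3% of the tested genes of the list, against 33.9% over all genes. Markers of endothelium, where Sox17 is also known, summed to between 0.82 and 1.08 CPM in MOSE-PAX8 and between 0.869 and 1.66 CPM in MOSE-NEO, and the endothelial genes Cdh5, Erg and Cldn5 were at 0 in every library. The 10 leukocyte markers summed to between 8.89 and 10.2 CPM in MOSE-PAX8 and between 9.09 and 16.9 CPM in MOSE-NEO, with Adgre1 and Tyrobp among those at 0 throughout. Of the 3 tested, the pan-leukocyte phosphatase gene Ptprc rose, with 60, 49 and 87 counts in MOSE-PAX8 against 0, 0 and 1 in MOSE-NEO (ratio 164, 95% counting interval 29.2 to 6528, edgeR adjusted p = 0.000103), and the macrophage receptor gene Csf1r fell 2.52-fold (edgeR adjusted p = 0.00373). The 10 granulosa and theca markers summed to between 468 and 511 CPM in MOSE-PAX8 and between 549 and 661 CPM in MOSE-NEO, with Fshr, Cyp19a1 and Lhcgr at 0. Of the 4 tested, the granulosa factor Foxl2 rose, with 57, 47 and 78 counts in MOSE-PAX8 against 0, 1 and 0 in MOSE-NEO (ratio 153, 95% counting interval 27.1 to 6064, edgeR adjusted p = 0.000117), and Inha and Star fell 1.31-fold and 1.28-fold, Star with its call lost without any library but MOSE-NEO replicate 1 (edgeR adjusted p up to 0.0896). The 8 fibroblast markers summed to between 7941 and 8909 CPM in MOSE-PAX8 and between 14491 and 17302 CPM in MOSE-NEO, and of the 5 tested 1 rose and 1 fell. The smooth muscle actin gene Acta2 rose 44.9-fold, to 549 ± 164 CPM in MOSE-PAX8 against 12.3 ± 2.01 CPM in MOSE-NEO (SD, n = 3 each, edgeR adjusted p = 2.75e-06), and the collagen gene Col1a2 fell 2.58-fold (edgeR adjusted p = 0.000114). Ratios with a counting interval are of counts summed over a line, per TMM-scaled library total. Called were 66.7% of the tested leukocyte markers, 75% of the granulosa and theca markers and 40% of the fibroblast markers, on few genes each. The part of these cell type markers in the results was not tested.

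The first question was which of the 8 lineage markers differed between the lines. Mecom was counted in MOSE-PAX8 and had 0 counts in MOSE-NEO. Folr1 was abundant in both lines at like levels. Foxj1 and Msx1 gave few counts, Emx2 a single count, and Sox17, Wfdc2 and Msx2 none in any library. A low-count filter left only Mecom and Folr1 in the test over all genes, and Mecom alone was called (edgeR quasi-likelihood test, Benjamini-Hochberg adjusted p below 0.05). By that rule 33.9% of the 12313 tested genes were called, 17.9% as higher and 16.1% as lower in MOSE-PAX8, so a call on 1 of 2 tested genes is no result about the set. Genes at 0 in all libraries made up 24.8% of the 21017 protein-coding genes counted, against 3 of these 8.

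**Figure D1:**
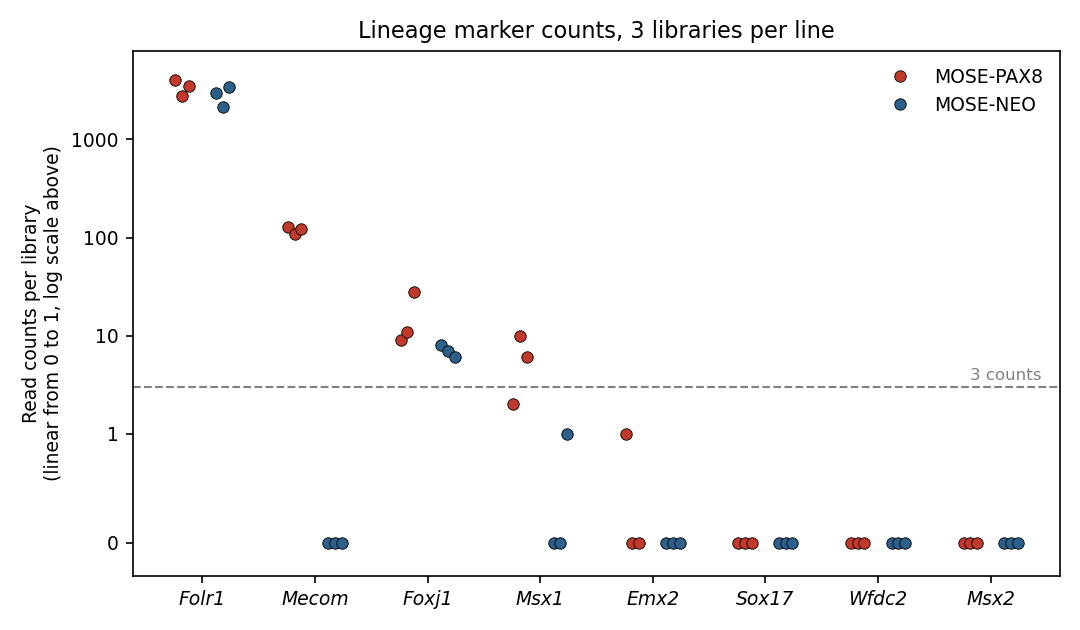
Read counts per library (linear from 0 to 1, log scale above) of each lineage marker, with MOSE-PAX8 left of MOSE-NEO and 1 point per library. The dashed line marks 3 counts, the upper limit that a count of 0 allows. Mecom lies between 109 and 127 in MOSE-PAX8 and at 0 in MOSE-NEO, Folr1 overlaps between the lines, and Sox17, Wfdc2 and Msx2 are at 0 throughout.

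Mecom (ENSMUSG00000027684, chromosome 3, 29951296 to 30548008, minus strand of mm10) encodes the zinc finger factor EVI1 and, from a start farther upstream, the longer MDS1-EVI1 protein with a PR domain. It had 127, 109 and 122 counts in the MOSE-PAX8 libraries, or 3.47, 3.43 and 3.76 CPM, against 0, 0 and 0 counts in the MOSE-NEO libraries. The MOSE-PAX8 libraries lay close together and far above the limit of 3 counts, which is between 0.0953 and 0.13 CPM in the MOSE-NEO libraries. Against 3 counts over the whole of MOSE-NEO, Mecom was at least 100.1-fold higher in MOSE-PAX8 (edgeR adjusted p = 3.97e-05). The adjusted p ran from 2.28e-12 to 0.000939 over the 15 alternative settings. Mecom was 1 of 27 genes with 0 counts in MOSE-NEO and at least 100 counts over the MOSE-PAX8 libraries.

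The level it reached was low. Per kilobase of merged exons Mecom stood at 0.286 ± 0.0146 CPM in MOSE-PAX8 (SD, n = 3), above 7.72% of the tested genes of that line, where Pax8 stood at 15 ± 3.23 CPM per kilobase. Counts per gene do not separate the MDS1-EVI1 start from the EVI1 start, and without a stated strand they cannot be told apart from reads of the overlapping antisense gene Mecomos, not analysed here. Of the tested genes on either side 1 was not called and 1 was lower. Mynn, a zinc finger gene whose start lies 54057 bases away, had 39.7 CPM in MOSE-PAX8 and 43.2 CPM in MOSE-NEO (log2 fold change -0.12 ± 0.07 SE, edgeR adjusted p = 0.223). Rpl22l1, a ribosomal protein paralog 1742572 bases away on the other side, was lower (log2 fold change -0.37 ± 0.08 SE, edgeR adjusted p = 0.00714), and the median log2 fold change of the 50 tested genes on either side of Mecom was 0.02.

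The sequence before the MDS1-EVI1 start of Mecom is shown because Mecom was the 1 lineage marker called, and that before the start of Msx1 because its libraries did not overlap between the lines (below). Both are on the minus strand, read 5′ to 3′ from the promoters of RefSeq on GRCm38.p6. The Mecom stretch ends at the last base that lies in no annotated exon of the gene. The Msx1 stretch is the full 250 bases before the RefSeq start. Capitals mark CpG dinucleotides, the sites at which mammalian DNA is methylated.
Mecom, chr3:30509823-30510009: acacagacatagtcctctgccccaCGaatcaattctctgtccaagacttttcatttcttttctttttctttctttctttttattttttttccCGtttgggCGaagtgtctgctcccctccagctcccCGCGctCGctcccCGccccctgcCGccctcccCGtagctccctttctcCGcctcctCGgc
Msx1, chr5:37824586-37824835: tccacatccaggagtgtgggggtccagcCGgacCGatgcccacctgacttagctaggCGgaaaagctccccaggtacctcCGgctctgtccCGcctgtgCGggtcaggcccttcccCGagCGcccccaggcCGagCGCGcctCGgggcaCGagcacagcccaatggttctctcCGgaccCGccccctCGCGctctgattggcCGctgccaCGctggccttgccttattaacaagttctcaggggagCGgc

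The Mecom stretch holds 11 CpG in 187 bases, and the full 250 bases before that start hold 14. The Msx1 stretch holds 20 in 250 bases and is 68% G or C. The median of the 32851 RefSeq promoters is 6 CpG in 250 bases. Promoter sequences were matched for 5 of the 8 genes (Mecom, Wfdc2, Emx2, Msx1 and Msx2), and Mecom has entries for both starts. The letters GTCACGC, a core of the sequence bound by the PAX2, PAX5 and PAX8 paired domains, were searched on both strands of the 250 bases before each start. They occur in 1.78% of all promoters of that length and in none of the promoters of these 5 genes. The letters TATAAA, found in 12.4% of promoters, were also in none of them.

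Among the genes whose pattern over the 6 libraries was most like that of Mecom were Trnp1 and Fam19a2, with a Pearson r of log2 CPM of 0.99999 for Trnp1 and 0.9998 for Fam19a2. Both had 0 counts in the 3 MOSE-NEO libraries. Fam19a2 had 92, 73 and 91 counts in the MOSE-PAX8 libraries and Trnp1 had 16, 14 and 15. With only 2 lines such an r is easily high: 1033 tested genes had an r above 0.95 with Mecom.

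Folr1 (ENSMUSG00000001827, chromosome 7, 101858331 to 101870788, minus strand) encodes folate receptor alpha, a membrane-anchored protein that takes folate into the cell. It had 4010, 2744 and 3525 counts in the MOSE-PAX8 libraries, against 2993, 2124 and 3453 in the MOSE-NEO libraries. These are 109.7, 86.2 and 108.6 CPM in MOSE-PAX8 and 95.1, 92.3 and 114.6 CPM in MOSE-NEO, so the lines overlapped. The mean was 101.5 ± 13.2 CPM in MOSE-PAX8 and 100.7 ± 12.2 CPM in MOSE-NEO (SD, n = 3 each). The log2 fold change was 0.01 ± 0.12 (SE; 95% interval -0.26 to 0.29, edgeR adjusted p = 0.954), which bounds a difference between a fold of 0.834 and one of 1.22. Per kilobase Folr1 was above 91.7% of tested genes in MOSE-PAX8 and 91.4% in MOSE-NEO.

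The surroundings of Folr1 on chromosome 7 were raised in MOSE-PAX8: the 50 tested genes on either side gave a median of 0.24 on the log2 scale. With that median removed the log2 fold change of Folr1 was -0.23 (edgeR adjusted p = 0.204). Anapc15, a subunit of the anaphase-promoting complex, overlaps Folr1 on the other strand without sharing an exon base. It had 569, 822 and 631 counts in the MOSE-PAX8 libraries and 376, 177 and 235 in the MOSE-NEO libraries, and it rose 2.21-fold (edgeR adjusted p = 0.00477).

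Foxj1 (chromosome 11, 116330704 to 116335399, minus strand) had 9, 11 and 28 counts in the MOSE-PAX8 libraries, against 8, 7 and 6 in the MOSE-NEO libraries. In CPM these are 0.246, 0.346 and 0.863 in MOSE-PAX8 and 0.254, 0.304 and 0.199 in MOSE-NEO, so the lines overlapped and MOSE-PAX8 replicate 3 stood above the other libraries. Summed over the libraries and taken per TMM-scaled library total, the counts stood in a ratio of 1.92 (95% counting interval 1.13 to 3.37, without the spread between libraries). A two-sided exact permutation test over the libraries gave p = 0.3, where the smallest p that 3 against 3 can give is 0.1. Fitted without the low-count filter, Foxj1 was not called (edgeR adjusted p = 0.256).

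Msx1 (chromosome 5, 37820485 to 37824583, minus strand) had 2, 10 and 6 counts in the MOSE-PAX8 libraries, against 0, 0 and 1 in the MOSE-NEO libraries. Each MOSE-PAX8 library was above each MOSE-NEO library. The libraries of the lines did not overlap in 47.6% of all tested genes, a set without the genes below the low-count filter, Msx1 among them. Per TMM-scaled library total, the ratio of the summed counts was 15.1, with a 95% counting interval of 2.38 to 629. The exact permutation p was 0.1, the smallest possible. Msx1 was below the low-count filter, and without that filter it was called (edgeR adjusted p = 0.0359). With DESeq2 4 of the 8 markers were tested, and Mecom alone was called. One of the MOSE-PAX8 libraries held fewer than 3 counts, so the level stayed close to the limit of detection.

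Emx2 (chromosome 19, 59458372 to 59465357, plus strand), a homeobox gene without which the mouse lacks a reproductive tract and kidneys, had 1 count in MOSE-PAX8 replicate 1 and 0 in the other libraries. Its antisense neighbour Emx2os was at 0 in all libraries. Msx2 (chromosome 13, 53466884 to 53473074, minus strand), the close paralog of Msx1, had 0 counts in every library. So did Sox17 (chromosome 1, 4490931 to 4497354, minus strand), a factor of endoderm, endothelium and oviduct epithelium, and Wfdc2 (chromosome 2, 164562413 to 164568510, plus strand), a secreted protein with domains of the whey acidic protein type. A count of 0 allows up to between 0.082 and 0.0943 CPM in the MOSE-PAX8 libraries and up to between 0.0953 and 0.13 CPM in the MOSE-NEO libraries, counting error only. No difference between the lines was detectable at this depth for these 4 genes.

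Ordered by CPM per kilobase of merged exons in MOSE-PAX8, Folr1 stood at 44.2 ± 5.76, Mecom at 0.286 ± 0.0146, Foxj1 at 0.185 ± 0.126, Msx1 at 0.0596 ± 0.0419 and Emx2 at 0.00304 ± 0.00526 (SD, n = 3). Folr1 lay far above Mecom in every library. Mecom and Foxj1 overlapped, since MOSE-PAX8 replicate 3 had 0.329 CPM per kilobase of Foxj1 and 0.303 of Mecom, and so did Foxj1 and Msx1. Emx2, with its single count, lay below each library's Msx1. With the longest transcript as length Mecom stood at 0.624 ± 0.0318, clear of Foxj1 at 0.185 ± 0.126, and Folr1 at 77.3 ± 10.1. In MOSE-NEO Folr1 stood at 43.8 ± 5.29, Foxj1 at 0.0963 ± 0.02 and Msx1 at 0.00357 ± 0.00619.

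The next question was how genes that act with these markers compared, over 8 lists that hold 177 genes, of which 101 were tested. Of these 26 rose and 22 fell in MOSE-PAX8, and 48 called genes are 47.5% of those tested, against 33.9% of all genes. Without MOSE-PAX8 replicate 3 there were 30.

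**Figure D2:**
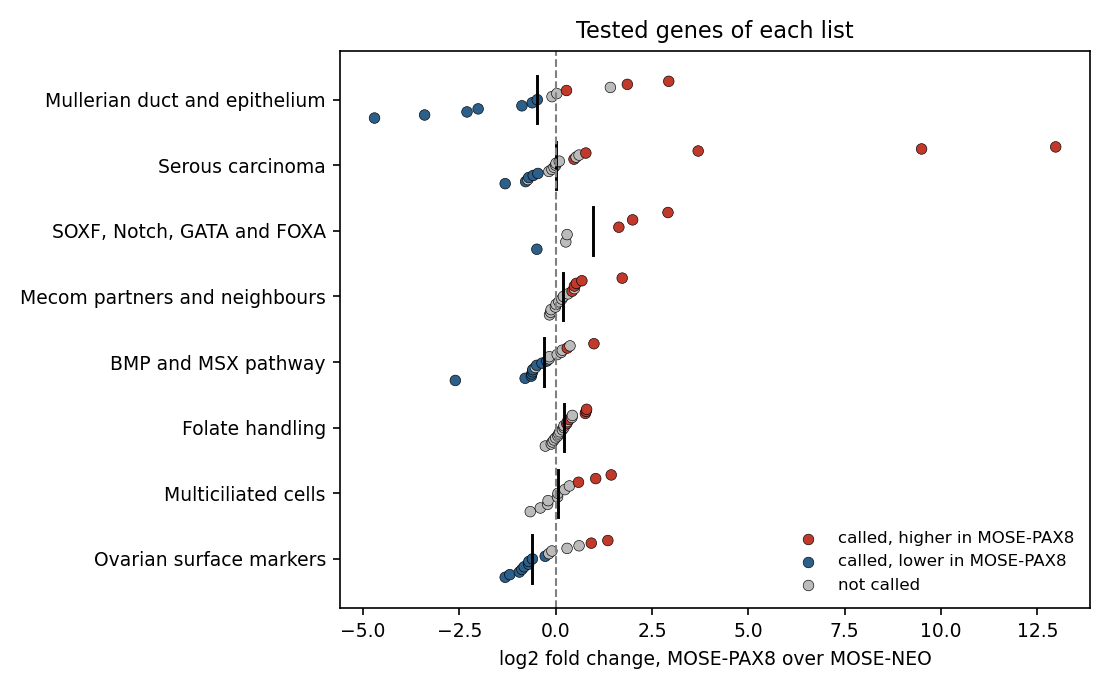
Log2 fold change, MOSE-PAX8 over MOSE-NEO, of each tested gene of the 7 lists with tested genes and of the ovarian surface markers. Red points were called higher and blue points lower in MOSE-PAX8 (edgeR adjusted p below 0.05), grey points were not called, short black lines are list medians and the dashed line is the median of all tested genes (0.01). The points of Cdh6 and L1cam, at the far right, rest on 0 counts in MOSE-NEO and depend on the prior count of the fit.

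Among genes of the Mullerian duct and its epithelium, most of those called were lower. Of 22 genes 13 were tested, 3 rose and 7 fell, with a median log2 fold change of -0.48 against 0.01 for all tested genes. The called genes were 76.9% of those tested, against 33.9% over all genes. With the median of chromosome neighbours removed 6 fell and the list median was -0.05, and without replicate 1 of MOSE-NEO or replicate 3 of MOSE-PAX8 5 fell. Esr1, the oestrogen receptor, had 28, 15 and 20 counts in the MOSE-PAX8 libraries, against 179, 146 and 236 in the MOSE-NEO libraries (log2 fold change -3.41 ± 0.24 SE, edgeR adjusted p = 2.48e-05). Dach2, a cofactor known in Mullerian duct development of the mouse, had 1, 1 and 0 counts in MOSE-PAX8 against 11, 15 and 26 in MOSE-NEO. Its ratio per TMM-scaled library total was 0.0323, with a 95% counting interval of 0.00381 to 0.123.

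Hox genes of the tract were low or lower. Hoxa10, a homeobox gene of the uterus, had 145, 146 and 158 counts in MOSE-PAX8, against 622, 545 and 690 in MOSE-NEO (log2 fold change -2.31 ± 0.12 SE, edgeR adjusted p = 5.63e-06). Hoxa9, the homeobox gene of the oviduct, fell 4.04-fold (edgeR adjusted p = 0.015), a call lost without replicate 1 or 2 of MOSE-NEO or replicate 3 of MOSE-PAX8 (up to 0.0569), while Hoxa11 and Hoxa13 were at 0 in every library. Ovgp1, which encodes the glycoprotein secreted by the oviduct, fell 1.53-fold to 7.22 ± 1.7 CPM in MOSE-PAX8, against 11 ± 1.56 CPM in MOSE-NEO (SD, n = 3 each, edgeR adjusted p = 0.0315). That call was lost without any 1 of 4 libraries (replicates 1 and 3 of each line; edgeR adjusted p up to 0.111). The cytokeratin Krt7 fell 1.84-fold.

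The genes of this list that rose were signalling genes. Wnt4, needed to form the duct, had 58, 97 and 112 counts in MOSE-PAX8 against 10, 13 and 6 in MOSE-NEO (log2 fold change 2.93 ± 0.44 SE, edgeR adjusted p = 0.00123). The receptor Fgfr2 had 152, 122 and 90 counts in MOSE-PAX8 against 27, 20 and 37 in MOSE-NEO. Vangl2, a planar polarity gene, rose 1.21-fold and lost its call without any 1 of 4 libraries (MOSE-NEO replicates 1 and 2, MOSE-PAX8 replicates 2 and 3; edgeR adjusted p up to 0.109) or without MOSE-NEO 1 and MOSE-PAX8 2 together (0.106). Amhr2, the receptor of the hormone that makes the duct regress, had 160 ± 28.7 CPM in MOSE-PAX8 and 157 ± 8.51 CPM in MOSE-NEO and was not called. The early duct genes Pax2 and Lhx1 had 6 and 1 counts over the MOSE-PAX8 libraries and 0 in MOSE-NEO, and Wnt9b, Dach1 and Pgr were at 0 in every library.

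Genes used as markers of serous carcinoma moved in both directions. Of 28 genes 19 were tested, 5 rose and 5 fell (52.6% called, against 33.9% of all genes). The median log2 fold change was near 0 (-0.00228, the same with the MOSE-NEO counts of Cdh6 and L1cam set at 3). Without MOSE-PAX8 replicate 3 there were 4 that rose and 2 that fell, and without MOSE-NEO 1 and MOSE-PAX8 2, the libraries with more lincRNA counts, 5 and 2. The cadherin gene Cdh6 and the adhesion molecule gene L1cam resembled Mecom in having 0 counts in MOSE-NEO. Cdh6 had 714, 1208 and 1305 counts and L1cam 73, 103 and 114 in the MOSE-PAX8 libraries, and L1cam was at least 81.1-fold higher (edgeR adjusted p = 0.000168). Sox9, a SOX factor of duct progenitors in several organs, had 611, 777 and 922 counts in MOSE-PAX8 against 64, 42 and 45 in MOSE-NEO and rose 13-fold (edgeR adjusted p = 1.26e-05).

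Several standard carcinoma markers were lower, not called or at 0. Wt1, a zinc finger factor of both serous carcinoma and the ovarian surface, had 721 ± 29.6 CPM in MOSE-PAX8 and 1175 ± 52.2 CPM in MOSE-NEO (SD, n = 3 each, edgeR adjusted p = 0.000363). The tight junction gene Cldn3 fell 1.72-fold, a call lost without MOSE-PAX8 replicate 3 (edgeR adjusted p = 0.0516) or without that pair (0.0727). Klf5 fell 1.5-fold. Its call was lost once the median of its chromosome neighbours was removed (edgeR adjusted p = 0.463) and without that pair (0.0568). Muc16, the antigen CA125, had 272 ± 87.4 CPM in MOSE-PAX8 and 450 ± 98.7 CPM in MOSE-NEO and lay at the threshold: it was not called (edgeR adjusted p = 0.0522), but was called as lower in 7 of the 15 alternatives (adjusted p from 0.00209 to 0.158 over all 15). Epcam, Mal and Prame were at 0 in every library.

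For Wfdc2, the genes of a list of related inhibitors of the whey acidic protein and Kunitz types were also low. None of the 14 passed the low-count filter, 9 were at 0 in every library, and the most abundant, Wfdc3, had 23 counts over the MOSE-PAX8 libraries and 16 over the MOSE-NEO libraries. Wfdc12 had 6 counts in MOSE-PAX8 and 1 in MOSE-NEO. Slpi, another whey acidic protein inhibitor, counted with the carcinoma markers, had 6 ± 1.47 CPM in MOSE-PAX8 and 6.06 ± 2.7 CPM in MOSE-NEO and was not called. Spint2, a Kunitz inhibitor also counted there, was not low, with 32.4 ± 4.42 CPM in MOSE-PAX8 and 44.7 ± 4.59 CPM in MOSE-NEO. It fell 1.38-fold (edgeR adjusted p = 0.0159, up to 0.0675 over the alternatives).

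For Sox17, its SOXF relatives Sox7 and Sox18 had 1 count each over the MOSE-PAX8 libraries and 0 in MOSE-NEO. That list also holds Notch genes and factors of endoderm. Among 6 tested, 3 rose and 1 fell (66.7% called, against 33.9% of all genes). The Notch target Hey2 had 136, 135 and 148 counts in MOSE-PAX8, against 20, 10 and 17 in MOSE-NEO (log2 fold change 2.91 ± 0.23 SE, edgeR adjusted p = 4.57e-05). The Notch genes Hey1, Notch1, Notch4 and Dll4 were below the low-count filter. They had 24, 31, 33 and 3 counts over the MOSE-PAX8 libraries, against 17, 26, 15 and 4 over the MOSE-NEO libraries. The endoderm factors Foxa1 and Hhex rose 3.11-fold and 3.98-fold, and Gata6 fell 1.41-fold. With the median of chromosome neighbours removed 5 rose.

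For Mecom, genes known as partners or neighbours included 5 of 15 tested that rose and none that fell (median log2 fold change 0.2). These are 33.3% of the tested genes of the list, close to the 33.9% called over all genes. Runx1, a core factor of blood formation in which EVI1 also acts, had 616, 758 and 695 counts in MOSE-PAX8, against 165, 235 and 109 in MOSE-NEO, and rose 3.3-fold (edgeR adjusted p = 0.00372). The corepressor gene Ctbp2 rose 1.4-fold, a call lost with its neighbours' median removed (edgeR adjusted p = 0.09), and Ctbp1 had 175 CPM in MOSE-PAX8 and 174 CPM in MOSE-NEO. Hoxa7 rose 1.6-fold. Prdm16, the closest paralog of Mecom, had 1 count in MOSE-PAX8 and 3 in MOSE-NEO.

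For Msx1 and Msx2, whose genes respond to bone morphogenetic proteins (BMPs), genes of the pathway, inhibitors included, were mostly lower among those called. Of 18 tested genes 2 rose and 9 fell (61.1% called, against 33.9% of all genes), with a median log2 fold change of -0.3. Without MOSE-PAX8 replicate 3 there were 1 and 4, without MOSE-NEO replicate 2 there were 1 and 5, and with the chromosome neighbours' median removed there were 2 and 5. The ligand Bmp4 had 3431, 2599 and 2893 counts in MOSE-PAX8 against 4632, 3443 and 4901 in MOSE-NEO and fell 1.74-fold (edgeR adjusted p = 0.000171). The receptors Bmpr1a and Acvr1 fell 1.52-fold and 1.51-fold. Bmp4 and Bmpr1a lie on chromosome 14, where the median log2 fold change of chromosome neighbours was -0.42 for Bmp4 and -0.45 for Bmpr1a. With that median removed Bmpr1a lost its call (edgeR adjusted p = 0.24). Bmp4 kept its call in all 15 alternatives (adjusted p up to 0.00914). The inhibitors Smad6 and Pmepa1 also fell, 1.55-fold and 1.18-fold (edgeR adjusted p = 0.016 and 0.0489, up to 0.0598 and 0.201 over the alternatives). The target genes Id1 and Id3 fell, calls lost without replicate 2 of MOSE-NEO or replicate 3 of MOSE-PAX8 among others (edgeR adjusted p up to 0.0735 for Id1 and 0.0951 for Id3). Id4 rose to 23.1 ± 1.27 CPM in MOSE-PAX8 against 11.6 ± 0.949 CPM in MOSE-NEO (SD, n = 3 each). Smad1, a signal transducer of the pathway, rose 1.23-fold, a call lost without any 1 of 3 libraries (replicates 1 and 2 of MOSE-NEO, replicate 3 of MOSE-PAX8; edgeR adjusted p up to 0.0889) or without the lincRNA-rich pair (0.0653). The paralog Msx3 was at 0 in every library.

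For Folr1, 5 of 19 tested genes of folate uptake and metabolism rose and none fell (median log2 fold change 0.21). This is 26.3% of the list, below the 33.9% called over all genes. Folr2, the second folate receptor, had 2.66 ± 0.974 CPM in MOSE-PAX8 and 1.95 ± 1.03 CPM in MOSE-NEO, and the transporters Slc19a1 and Slc46a1 had log2 fold changes of -0.27 ± 0.13 and 0.08 ± 0.17 (SE). None of these was called, though Slc46a1 was called as higher without MOSE-NEO replicate 2 (edgeR adjusted p = 0.0325). The genes that rose were enzymes. Shmt1 and Shmt2, which load carbon from serine onto folate, rose 1.7-fold and 1.72-fold (edgeR adjusted p = 0.000597 and 0.00288). The count of 5 was 2 without replicate 1 of MOSE-NEO or replicate 1 or 3 of MOSE-PAX8.

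For Foxj1, several regulators of multiciliated cells had no counts. Gmnc, Mcidas, Foxn4 and Deup1, which act upstream of Foxj1 or build the centrioles of the cilia, were at 0 in every library, as were Spag6l and Sntn. Of the 30 genes of the list 19 were too low to test, with at most 17 counts in any library. The most abundant, the tubulin gene Tubb4b with 192 CPM in MOSE-PAX8 and 223 CPM in MOSE-NEO, was not called. Of 11 tested genes 3 rose and none fell, which is 27.3% called, below the 33.9% over all genes. Cfap43 rose 1.5-fold to 99.9 ± 16.4 CPM in MOSE-PAX8, against 66.4 ± 9.48 CPM in MOSE-NEO (SD, n = 3 each, edgeR adjusted p = 0.0125), a call lost without MOSE-NEO replicate 2 (0.0522). Ccno, with 34, 55 and 44 counts in MOSE-PAX8 against 17, 20 and 17 in MOSE-NEO, and Dnah11, with 19, 16 and 18 in MOSE-PAX8 against 6, 7 and 3 in MOSE-NEO, lost their calls in 8 (Ccno) and 9 (Dnah11) of the 14 alternatives that tested them. In 8 of the 15 alternatives only 1 gene of the list rose: with DESeq2, with a filter of 1 CPM, with the neighbours' median removed, without replicate 1 or 3 of MOSE-NEO, without replicate 2 or 3 of MOSE-PAX8, and without the lincRNA-rich pair. Without replicate 2 of MOSE-PAX8 1 gene also fell.

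**Figure D3:**
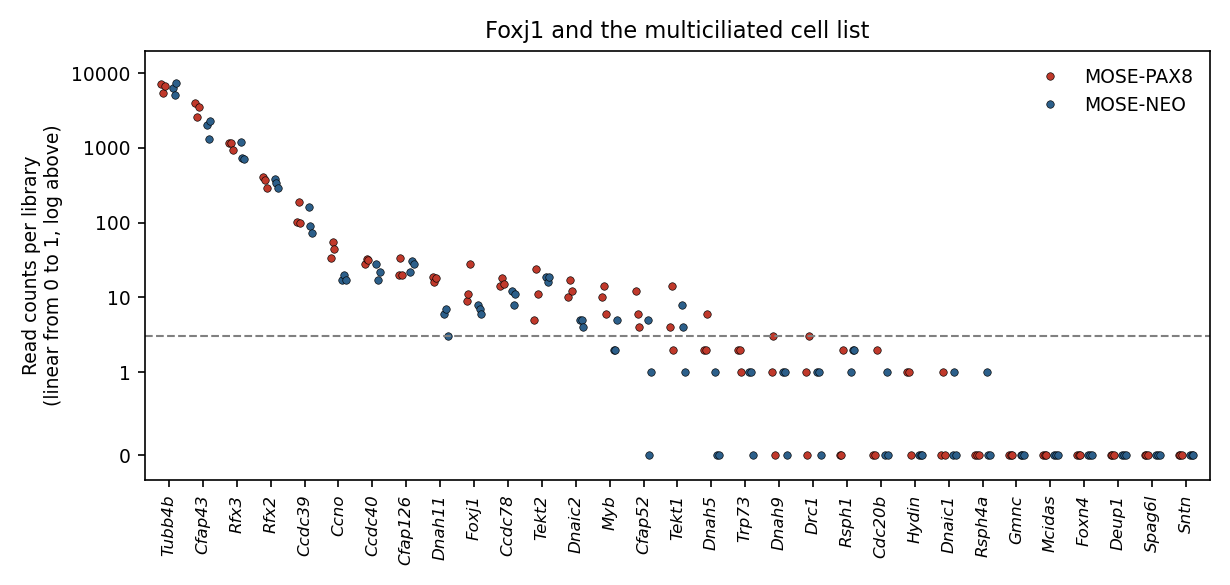
Read counts per library (linear from 0 to 1, log scale above) of Foxj1 and the 30 genes of the multiciliated cell list, in descending order of their sum in MOSE-PAX8, with MOSE-PAX8 left of MOSE-NEO and 1 point per library. The dashed line marks 3 counts. Tubb4b, Cfap43, Rfx3 and Rfx2 stand at the left, Foxj1 lies between 6 and 28 counts, and the 6 genes at the right are at 0 in all libraries.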

How the data were processed

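Total RNA of MOSE-PAX8 and MOSE-NEO cells was sequenced in 3 libraries per line. The authors deposited raw counts for each Ensembl gene. The submitters' processing notes name cutadapt 1.13, STAR, HTSeq 0.6.1p1, DESeq2 and the mm10 build. For annotation, strand and multi-mapped reads the setting was not given in the sources used here. Symbols, coordinates and exon lengths came from GENCODE M21 on that build (24991 identifiers matched) and promoters from RefSeq.

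MOSE-PAX8 was tested against MOSE-NEO on all genes with the edgeR 4.0.16 quasi-likelihood test (R 4.3.3, TMM factors, filterByExpr, Benjamini-Hochberg adjustment). Each SE is the log2 fold change divided by the root of its F statistic. The fit was tested on simulated data. Alternatives were DESeq2 1.42.0, limma-voom (limma 3.58.1), RLE and upper-quartile factors, no filter, a minimum of 1 CPM in 3 libraries, a replicate block, leaving out each library, MOSE-NEO 1 and MOSE-PAX8 2 (more lincRNA counts) left out together, and the local chromosome median as an offset.

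The 8 genes and all lists were chosen with earlier results of these data known. Named genes were the 8, Pax8, from each list up to 3 called genes per direction by adjusted p (with none called, the 2 most abundant), the 3 genes most correlated with, and the tested neighbours of, a called marker. Other named list genes and the motifs were chosen with values known. Same-numbered libraries did not consistently deviate together (r = -0.47, 0.05 and 0.40), so numbers were not used as pairs. Between lines r was highest for MOSE-PAX8 2 with MOSE-NEO 1 (0.63) and lowest for MOSE-PAX8 2 with MOSE-NEO 3 (-0.64). The cause of this was not tested. A few genes selected this way are not reported here.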

Additional observations from a re-analysis of the deposited data

How the results depend on the processing

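The rise of Mecom kept its direction and its call in all 15 alternatives, with a log2 fold change of 9.72 to 9.85 with 1 library left out. With 0 counts in MOSE-NEO that size depends on the prior count of the fit. It was 7.64 with limma-voom and 9.06 ± 1.21 (SE) with DESeq2. The bound of at least 100.1-fold does not use that prior count. Folr1 was called in none, and its near-zero log2 fold change turned sign with DESeq2 (-0.0012), with the local chromosome median removed (-0.23) and in 4 of the 6 fits with 1 library left out (-0.058 to 0.12). Without the low-count filter 2 of the 8 markers were called, Mecom and Msx1. With DESeq2 4 of the 8 were tested, and Mecom alone was called. The level of Folr1 in MOSE-PAX8 was 77.3 CPM per kilobase with the longest transcript as length. With 1 library left out, genes called numbered 2859 to 3908, of which 1545 to 2065 higher and 1314 to 1843 lower, and called genes of the 8 lists 30 to 48. The lowest of each came without MOSE-PAX8 replicate 3, and the cause was not tested. Among genes that were not called, Esam turned sign with 1 library left out (-0.49 to 0.085) and Lamtor1 with the local median removed (-0.040). Values near 0 also turned sign: Amhr2 (-0.024 with the local median removed, -0.12 to 0.13 with 1 library left out), Slpi (0.020 with upper-quartile factors, 0.095 with limma-voom, 0.050 with the replicate block, 0.034 with the local median removed, -0.25 to 0.39 with 1 library left out), Slc46a1 (-0.0039 without the lincRNA-rich pair, -0.049 to 0.32 with 1 library left out) and Ctbp1 (-0.0038 with RLE factors, -0.0055 with DESeq2, -0.023 without that pair, -0.042 to 0.029 with 1 library left out). Wnt5a, called lower (-0.48) and on chromosome 14, came to 0.0020 with the local median removed. With the replicate number as a block 3933 genes were called against 4178. Of the genes named here, Smad6, Pmepa1 and Spint2 left aside, Dnah11 alone lost its call (edgeR adjusted p = 0.0609) and Muc16 alone gained one (0.00209). In the BMP list 8 genes were called lower with that block, against 9 in the main fit. Depth limits the low markers: below 3 counts per library nothing can be said.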
